A study of Mus musculus with 6 samples.

Results

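The cells described here are the NK-type lymphocytes of mouse liver, taken from single-cell libraries of wild-type and SIRT7-/- mice. The members were chosen by measured values, namely the UMIs of 9 genes. A cell was taken when it held at least 1 UMI of Ncr1, which encodes the NK receptor NKp46, and of Nkg7, a cytotoxic granule gene. It also had to hold none of Cd3d, Cd3e and Cd3g (the T cell receptor complex), C1qa and Clec4f (liver macrophages), Cd79a (B cells) or Siglech (plasmacytoid dendritic cells). This gave 226 cells of 11610, of which 35 came from wild-type mice and 191 from SIRT7-/- mice. Wild-type mice 1, 2 and 3 gave 9, 15 and 11 of these cells. SIRT7-/- mice 1, 2 and 3 gave 112, 70 and 9.

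SIRT7 is an NAD-dependent deacetylase of the nucleus, and mice that lack it were used by the study as a chow-fed model of nonalcoholic steatohepatitis. The knockout is not limited to NK-type cells, and a level here belongs to cells from an animal in which the other liver cells lack SIRT7 too. There were 3 mice per genotype, aged 5 to 6 months in both groups, and their strain and sex are not given in the sources used here. Hepatocytes and nonparenchymal cells were freed from the liver by collagenase perfusion, and equal numbers of both were mixed for each 10x Chromium 3′ library, so a share of all cells is a share of that mixture. No label says which mice were littermates or handled together, and the tests measure the spread between these mice.

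NK cells kill infected or transformed cells with perforin and granzymes, and they read their targets through activating and inhibitory receptors. Many of these are C-type lectins of the killer cell lectin-like receptor (Klr) family. In the liver, circulating NK cells, which use the transcription factor Eomes and the integrin Itga2 (CD49b), live beside resident group 1 innate lymphoid cells (ILC1), which carry the chemokine receptor Cxcr6 and the integrin Itga1 (CD49a). Both kinds express Ncr1, whereas type 2 innate lymphoid cells do not.

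The libraries differed in depth and in the RNA of other cells. They held 552 to 5609 cells and 2511947 to 11069411 UMIs per mouse, with a median of 1630 to 3875 UMIs per cell. The members were shallow, with a median of 1325.5 UMIs (744 to 9612) and per-mouse medians of 1002 to 2578 (wild type) and 1137.5 to 2190 (SIRT7-/-). Over the 6 mice, 13 barcodes occurred more than once, but 0 members had such a barcode. Summed over their marker lists, hepatocyte RNA in the members came to 131 to 222 CP10K (UMIs per 10000 of a cell, averaged over the cells of a mouse) in the wild type and to 25.6 to 136 CP10K in mice without SIRT7. Neutrophil markers reached 83.4 CP10K in SIRT7-/- mouse 1, whose T cells held 68.4 CP10K, and lay between 0 and 0.536 CP10K in the members of the other 5 mice. Red blood cell markers reached 588 CP10K in the 9 members of wild-type mouse 1, against 26.7 CP10K in its T cells and 48.8 CP10K over all its cells. They lay between 0 and 0.966 CP10K in the members of the other 5 mice.

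The marker genes bore out an NK-type identity, and little was seen of type 2 and type 3 innate lymphoid cells. Members with the ILC1 genes Cxcr6 or Itga1 and neither Eomes nor Itga2 numbered 68. Those with Eomes or Itga2 and neither Cxcr6 nor Itga1 numbered 29, and both are described below. Besides Ncr1 and Nkg7, which chose the cells, Xcl1 (a chemokine for dendritic cells) was found in 127 members (56%), Klrb1c (the antigen NK1.1) in 107 (47%) and Gzmb (granzyme B) in 95 (42%). These shares pool cells, 112 of 226 from SIRT7-/- mouse 1. By mouse they ran from 18.2% to 67.1% for Xcl1, from 27.7% to 88.9% for Klrb1c and from 32.1% to 77.8% for Gzmb. Among 1033 T cells, taken as cells with at least 2 of the 3 Cd3 genes and deeper at a median of 2251 UMIs, the same genes were found in 26%, 16% and 20%. Trac, the constant chain of the alpha-beta T cell receptor, was found in 3 members, Cd4 in 1 and Cd8a and Cd8b1 in 0. Trbc2, which NK cells can transcribe without rearranging it, was found in 36% of members and 80% of T cells. By mouse, Trbc1 had a median of 3.73 CP10K in members and 6.86 CP10K in T cells. Trdc, the constant chain of the delta receptor, had a higher median in members, 0.613 against 0.369 CP10K. Its ranges overlapped, at 0.278 to 3.68 and 0.0978 to 0.683 CP10K. Tcrg-C1, a constant chain of the gamma receptor, had medians of 0 and 1.09 CP10K. Whether gamma-delta T cells were among the members was not tested. Of the markers of type 2 innate lymphoid cells, Il1rl1, Il4, Areg and Il17rb were at 0 and Gata3 was found in 18 members. Of those of type 3, Ccr6 was at 0, Kit was found in 6 members and Il1r1 in 1. The requirement for Ncr1 leaves out innate lymphoid cells that lack it, and the cells are therefore called NK-type cells here.

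The rule has sharp edges. Of 413 cells with Ncr1 and Nkg7, 187 were left out, 100 of them for a Cd3 gene and 97 for C1qa or Clec4f, and 46 held only 1 UMI over the 7 excluded genes. Just inside the rule, 75 members held 1 UMI of Ncr1, and just outside it 174 cells held Nkg7 but no Ncr1 with the other 7 genes at 0. C1qa or Clec4f was above 0 in 7.08%, 7.93% and 27.8% of all cells of wild-type mice 1, 2 and 3 and in 55%, 33.9% and 22.6% of all cells of SIRT7-/- mice 1, 2 and 3. The part of these differences in who became a member was not tested. Members were 75%, 88.2% and 52.4% of the cells with Ncr1 and Nkg7 in wild-type mice 1, 2 and 3, against 52.8%, 50.7% and 69.2% in SIRT7-/- mice 1, 2 and 3.

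NK-type cells were more frequent beside T cells in every SIRT7-/- mouse than in any wild-type mouse. As a share of members plus T cells, they made up 4.57%, 10.6% and 8.03% in wild-type mice 1, 2 and 3 and 34.3%, 16.3% and 33.3% in SIRT7-/- mice 1, 2 and 3. The groups did not overlap, at 7.75% ± 3.04 against 28.0% ± 10.1 (SD, n = 3 mice each), a difference of 20.2 percentage points (p = 0.1 by a two-sided exact permutation test, which cannot go lower with 3 against 3 mice). As a share of all cells the values were 0.724%, 1.61% and 1.01% against 2.0%, 3.21% and 1.63%, where the lowest SIRT7-/- mouse and the highest wild-type mouse nearly met (exact permutation p = 0.1). That share overlapped between genotypes when each cell was thinned to 1000 UMIs (exact permutation p = 0.2), when Klrb1c was required (p = 0.4) or when 1 Cd3 UMI was allowed (p = 0.2). The share of members plus T cells did not overlap under any of the 3. With Klrb1c required, the latter share was 3.09%, 8.7% and 5.97% in wild-type mice 1, 2 and 3. In SIRT7-/- mice 1, 2 and 3 it was then 12.6%, 10.4% and 30.8%, so SIRT7-/- mouse 2 and wild-type mouse 2 nearly met. T cells were 15.1%, 13.5% and 11.5% of wild-type cells and 3.83%, 16.5% and 3.26% of SIRT7-/- cells, low in SIRT7-/- mice 1 and 3, and these groups overlapped (exact permutation p = 0.4).

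**Figure D1:**
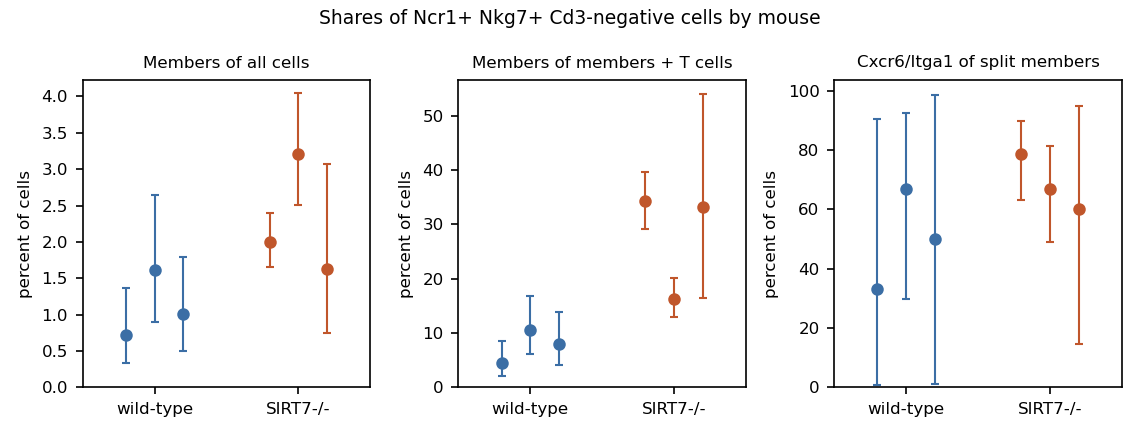
A point per mouse gives the NK-type cells (members) in percent of all cells, in percent of members plus T cells, and the Cxcr6/Itga1 cells in percent of the members split by Eomes, Itga2, Cxcr6 and Itga1, with bars for 95% exact Clopper-Pearson intervals. The SIRT7-/- mice lie at 16.3% to 34.3% of NK-type plus T cells and the wild-type mice at 4.57% to 10.6%.

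Few members were dividing. Cells with at least 2 of 8 division genes (Mki67, Top2a, Birc5, Ube2c, Cdk1, Ccnb2, Nusap1 and Pclaf) numbered 0 of 9, 1 of 15 and 1 of 11 in wild-type mice 1, 2 and 3 and 9 of 112, 11 of 70 and 1 of 9 in SIRT7-/- mice 1, 2 and 3. The groups overlapped, at 5.25% ± 4.71 and 11.6% ± 3.86 (SD, n = 3 mice each; exact permutation p = 0.2). With cells thinned to 1000 UMIs the shares were 6.67% and 7.80% (exact permutation p = 1). Among T cells of the same livers the share was 1.06%, 6.35% and 8.73% in the wild type against 17.7%, 41.1% and 11.1% in SIRT7-/- mice, without overlap (exact permutation p = 0.1).

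T cells are the cells most like the members in this series, and the contrast shows the program the gate picked out. Of the genes that passed, 5 belonged to the 2 gates, and none of these is counted in the lists or given as a result. Other lineage genes travel with them, so the values are a description of the gate and no p is attached to single genes. Over 6 mice, 143 of 3151 tested genes (4.54%) passed the test (limma, Benjamini-Hochberg adjusted p under 0.05), 57 higher (1.81%) and 86 lower (2.73%) in members, or 55 higher and 83 lower without the gate genes. In SIRT7-/- mice 1 and 2 alone, the 2 mice with at least 20 members, 118 of 3030 (3.89%) passed, 61 higher (2.01%) and 57 lower (1.88%), or 59 and 54 without the gate genes. Without wild-type mouse 2 the count over the other 5 mice was 94.

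The killing machinery stood out. Gzma, granzyme A, lay between 24.3 and 77.9 CP10K in the members of the 6 mice (median 61.9) and between 0 and 2.31 CP10K in their T cells (median 0.236), a log2 difference of 5.97 ± 0.49 (SE). Prf1, perforin, which opens the target membrane, averaged 4.48 ± 2.34 CP10K in members and 0.243 ± 0.118 CP10K in T cells (SD, n = 6 mice). Gzmb averaged 10.2 ± 3.24 against 1.87 ± 1.04 CP10K. The levels of the 3 genes did not overlap between the 2 cell classes. Serpinb9, which shields a killer from its own granzyme B, rose by 1.88 on the log2 scale. Of 12 tested genes of granules and death ligands, 4 were higher, with a median log2 difference of 0.87 beside −0.03 over all tested genes.

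NK receptors followed, and the adaptors in part. Of 17 tested NK receptor genes, 12 were higher and 0 lower, with a median log2 difference of 1.89. Klrd1 (CD94), which pairs with NKG2 chains, lay between 8.81 and 23.6 CP10K in members and between 2.44 and 3.89 CP10K in T cells. Klre1, an NK cell lectin-like receptor, lay at 5.42 to 12.9 against 0.488 to 2.23 CP10K. Klrk1 (NKG2D, a receptor for stress ligands) lay at 4.65 to 11.9 against 0.769 to 2.25 CP10K. All 3 separated the classes in every mouse. The adaptors Fcer1g and Tyrobp (DAP12), which pass on signals of activating receptors, averaged 23.1 ± 2.75 and 20.3 ± 2.98 CP10K in members against 1.79 ± 1.27 and 2.11 ± 1.65 CP10K in T cells (SD, n = 6 mice). Of 11 tested adaptors and cytokine receptors only 3 were higher, these and Il2rb, with a median log2 difference of 0.16. The adaptor Hcst (DAP10) averaged 5.12 CP10K in members and 7.20 CP10K in T cells, and Cd247 (the zeta chain) 1.17 and 0.866 CP10K, and neither passed.

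Among secreted factors the chemokine Ccl5 was the most abundant, at 101 ± 28.5 CP10K in members and 25.3 ± 8.97 CP10K in T cells (SD, n = 6 mice), and Ccl3 and Ccl4, which draw other leukocytes, were higher by 1.19 and 1.12 on the log2 scale. Xcl1 did not pass over 6 mice (log2 difference 1.29) but did in SIRT7-/- mice 1 and 2 alone (log2 difference 2.34). The transcription factors Zeb2 and Irf8, both known in mature NK cells, were higher by 1.98 and 1.71 on the log2 scale. In SIRT7-/- mice 1 and 2 alone Ccl4 and Zeb2 did not pass (log2 differences 0.23 and 0.81) and Ccl3 was too low to be tested, and Ccl4 passed in only 6 of 15 alternatives over 6 mice. Of 10 tested T cell markers, 8 were lower, Trac by a log2 difference of −2.70 and Bcl11b, a T lineage factor, by −2.36. Ly6a (Sca-1) had the lowest log2 difference of the named genes, −2.97, with members at 0 to 0.549 CP10K and T cells at 3.62 to 8.61 CP10K. The receptor Il7r was lower too, by a log2 difference of −1.82. ILC1 are known to carry Il7r, and of 15 tested genes of the liver ILC1 list 1 was higher (Cd7, a surface protein of lymphocytes) and 6 lower. Of 80 tested ribosomal protein genes 34 were lower and 0 higher, with a median log2 difference of −0.37, whereas in SIRT7-/- mice 1 and 2 alone 2 of 80 were lower (median −0.15). This stood beside shallower libraries of the members, whose part in this was not tested.

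**Figure D2:**
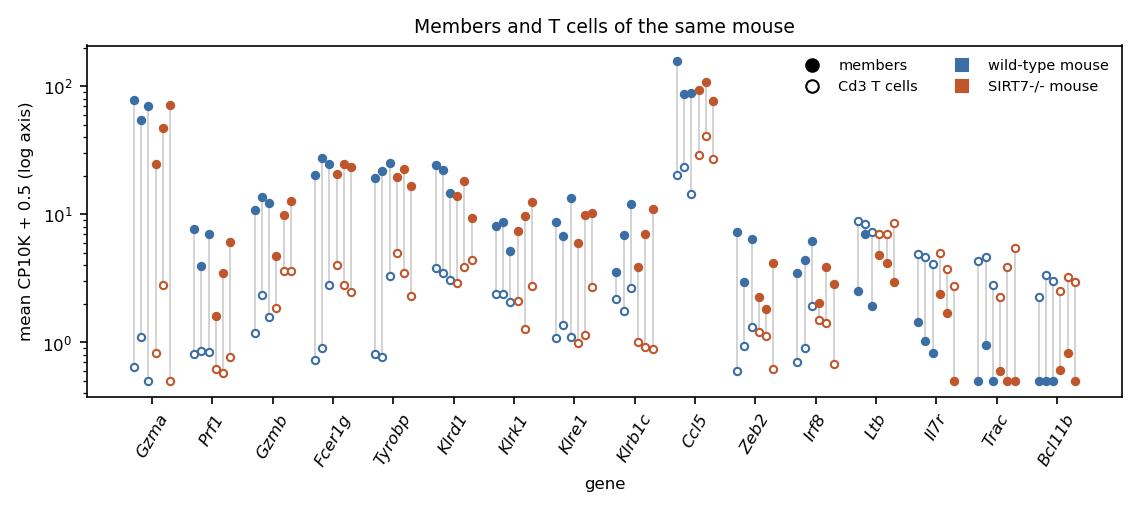
Levels of selected genes in NK-type cells and T cells of the same 6 mice, as mean CP10K + 0.5 on a log axis. Filled points are NK-type cells (members), open points T cells, a grey line joins both of a mouse, and before the 0.5 is added Gzma lies between 24.3 and 77.9 CP10K in NK-type cells and between 0 and 2.31 CP10K in T cells.

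The promoters of genes that were higher or lower in members than in T cells were searched for short strings. Whether such genes vary together or share a regulator was not tested. For 41 of the 55 higher genes (rule genes left out) and 54 of the 83 lower ones RefSeq (GRCm38.p6) gave a promoter, and the 250 bases before the start were searched on both strands. The core of the RUNX factors, TGTGGTT, occurred in 6 of 41 promoters of higher genes (14.6%), in 2 of 54 of lower genes (3.70%), in 3.39% of 2509 promoters of tested genes and in 4.46% of all 27025. The 6 genes were Gzma, Gzmb, Klre1, Klrk1, S100a6 and Tmsb4x. This was 1 of 7 strings looked for, some of which overlap, and it was picked for display after the counts were seen. The shorter TGTGGT, which lies within it, occurred in 29.3% of promoters of higher genes and 14.2% of all promoters, and the T-box string GGTGTGA in 0 of 41 and 3.31% of all. The promoters of Gzma (chr13:113100982-113101231, minus strand), Gzmb (chr14:56262335-56262584, minus strand) and Klre1 (chr6:129577963-129578212, plus strand) read 5′ to 3′ toward the gene as follows, with the string in capitals (in Gzma it is on the other strand, and the capitals show its reverse complement).
Gzma: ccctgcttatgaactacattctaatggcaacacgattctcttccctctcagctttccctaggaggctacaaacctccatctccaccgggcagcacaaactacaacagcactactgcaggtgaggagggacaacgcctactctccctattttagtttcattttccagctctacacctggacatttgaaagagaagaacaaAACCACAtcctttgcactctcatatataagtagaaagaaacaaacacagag
Gzmb: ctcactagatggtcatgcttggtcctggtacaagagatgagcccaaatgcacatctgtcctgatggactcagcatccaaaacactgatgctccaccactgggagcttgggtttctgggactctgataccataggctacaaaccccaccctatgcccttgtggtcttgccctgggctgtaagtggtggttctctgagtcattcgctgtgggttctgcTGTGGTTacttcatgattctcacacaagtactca
Klre1: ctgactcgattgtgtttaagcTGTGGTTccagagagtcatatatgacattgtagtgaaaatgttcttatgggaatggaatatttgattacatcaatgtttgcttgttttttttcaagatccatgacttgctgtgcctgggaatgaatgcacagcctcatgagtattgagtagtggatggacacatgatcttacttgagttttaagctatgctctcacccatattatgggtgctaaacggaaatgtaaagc
The match began 51 bases before the start in Gzma, 34 in Gzmb and 229 in Klre1. A match is a run of letters and not a measured binding site.

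Within the members, 29 cells held Eomes or Itga2 and neither Cxcr6 nor Itga1, and 68 held Cxcr6 or Itga1 and neither of the former. A further 6 held genes of both sides and 123 held none of the 4. Their median depths were 1719 UMIs for Eomes/Itga2 cells, 1359 for Cxcr6/Itga1 cells and 1217 for cells with none of the 4, and a gene is missed more often in a shallow cell. Eomes was found in 19 members, Itga2 in 16, Cxcr6 in 68 and Itga1 in 18. Cxcr6 and Itga1 shared 12 cells, Itga1 and Itga2 shared 0, Eomes and Itga1 shared 0, Cxcr6 and Eomes shared 3, and Cxcr6 and Itga2 shared 3. Eomes and Itga2, both markers of circulating NK cells, also shared 0 cells, so the Eomes/Itga2 side is a sum of cells seen through 1 gene or the other.

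The 2 subsets were compared in the 3 mice with at least 3 cells of each, wild-type mouse 2 (3 Eomes/Itga2 and 6 Cxcr6/Itga1 cells), SIRT7-/- mouse 1 (9 and 33) and SIRT7-/- mouse 2 (12 and 24). The test called 20 of 3280 genes (0.61%), 12 higher (0.366%) and 8 lower (0.244%) in Cxcr6/Itga1 cells, of which 18 were no splitting genes. Of all tested genes, 717 (21.9%) went the same way in all 3 mice, and all 20 called genes were among them. With 3 mice the test borrows its spread from all genes, which makes some adjusted p very small. Of the 18 genes, 6 passed without each of the 3 mice in turn, namely Gzma, Klf2, Cd7, S100a4, Lgals3 and AC163354.1, and 12 did not. Without SIRT7-/- mouse 2 it called 9 genes, with all mice that held 1 cell of each subset 1 gene, and with cells thinned to 1000 UMIs 1 gene.

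Gzma, Prf1, Klf2 and Klra4 were lower in Cxcr6/Itga1 cells. Gzma and Prf1 were the only 2 of 13 tested genes of granules and death ligands that passed, 6 of the 13 had a log2 difference above 0 and the list median was −0.17. Gzmb stood at 5.01, 7.0 and 4.60 CP10K in Eomes/Itga2 cells and at 19.9, 5.72 and 12.2 CP10K in Cxcr6/Itga1 cells (log2 difference 0.98, adjusted p = 0.433), with overlap. Gzma fell from 59.7, 54.9 and 84.8 CP10K in the Eomes/Itga2 cells of wild-type mouse 2 and SIRT7-/- mice 1 and 2 to 16.7, 4.68 and 21.4 CP10K in the Cxcr6/Itga1 cells (log2 difference −2.40 ± 0.20 SE, adjusted p = 1.77e-27). Pooled over all 6 mice, including those left out of the test, it had a UMI in 25 of 29 against 14 of 68 cells. Every mouse of the test showed the drop, and Gzma was still called in each alternative but that with all mice holding 1 cell of each subset. Prf1 fell from 9.39, 1.34 and 6.31 to 0, 0.103 and 0.518 CP10K (log2 difference −2.88 ± 0.69, adjusted p = 0.00814), and its adjusted p was 0.211 without wild-type mouse 2 and 0.606 without SIRT7-/- mouse 2. Klf2, a factor that keeps lymphocytes in circulation, fell from 14.0, 4.39 and 8.06 to 0, 0.874 and 0.876 CP10K (log2 difference −3.11 ± 0.57, adjusted p = 2.18e-05). The subsets did not overlap for these genes. Klra4, an activating lectin receptor of the Ly49 family, fell from 9.01, 3.19 and 5.95 to 0, 0.439 and 0 CP10K (adjusted p = 0.00041), with an adjusted p of 0.105 without SIRT7-/- mouse 2.

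Xcl1 and Cd7, both of the liver ILC1 list, and several other genes were higher in Cxcr6/Itga1 cells. Xcl1 went from 10.2, 4.0 and 0.995 CP10K to 14.4, 18.3 and 21.2 CP10K in the same mice (log2 difference 2.13 ± 0.36 SE, adjusted p = 1.56e-06). Pooled over all 6 mice, it was found in 10 of 29 against 55 of 68 cells. Its adjusted p was 0.606 without SIRT7-/- mouse 2. Cd7 went from 4.52, 4.59 and 1.90 to 20.7, 16.1 and 19.8 CP10K (log2 difference 2.29 ± 0.35, adjusted p = 8.93e-08). Pooled in the same way, it was found in 10 of 29 against 54 of 68 cells. Both genes were higher in all 3 mice of the test. S100a4, a calcium-binding protein of motile cells, went from 0, 1.82 and 3.27 to 18.4, 14.4 and 8.33 CP10K (log2 difference 3.05 ± 0.47, adjusted p = 7.98e-08). Lgals3, galectin-3, went from 0, 1.03 and 2.10 to 10.4, 5.64 and 8.11 CP10K (log2 difference 2.73 ± 0.54, adjusted p = 0.000186). Gimap3, Cd74, Cd52, Tmsb10, Tmsb4x, Xist and the unnamed transcript AC163354.1 passed as well, with log2 differences of 0.33 to 3.41, as did Ugcg, H2afz and Actb with differences of −1.76, −1.19 and −0.51. Of these 10 genes only AC163354.1 passed without each mouse in turn. Gimap3 is a GTPase of lymphocytes and Cd74 the invariant chain of MHC class II.

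Markers of myeloid cells moved the same way as S100a4, Lgals3 and Cd74 without passing. All 4 tested neutrophil markers had a log2 difference above 0 (median 1.59). S100a8 went from 1.89 to 51.8 CP10K in SIRT7-/- mouse 1 and was at 0 in both subsets of the other mice. Lyz2, lysozyme of macrophages and neutrophils, went from 0, 2.45 and 0.437 to 0.816, 3.74 and 7.12 CP10K in wild-type mouse 2 and SIRT7-/- mice 1 and 2 (log2 difference 1.65, adjusted p = 0.616). All 3 tested dendritic cell markers, Cd74 among them, had a log2 difference above 0 (median 0.85), and H2-Ab1, a chain of MHC class II, went from 1.17, 1.16 and 1.14 to 0, 3.49 and 10.5 CP10K. The part of RNA from such cells in the calls of S100a4, Lgals3 and Cd74 was not tested.

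By list, 13 genes of the circulating NK side could be tested, 4 were lower and 3 had a log2 difference above 0 (median −1.66, all tested genes 0.05). On the liver ILC1 side 11 could be tested, 2 were higher and all 11 had a log2 difference above 0 (median 1.49). Members of the ILC1 list that did not pass were Il7r, found in 1 of 29 against 15 of 68 cells (adjusted p = 0.212), Inpp4b, a lipid phosphatase (log2 difference 2.64, adjusted p = 0.0570), and the death ligand Tnfsf10 (TRAIL), found in 0 of 29 against 13 of 68 cells (adjusted p = 0.611). These cell counts pool all 6 mice, while each adjusted p came from the 3 mice of the test. The cells with none of the 4 genes lay between the subsets, with Gzma in 51.2%, Xcl1 in 47.2%, Cd7 in 46.3% and Klf2 in 22.8% of 123 cells.

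**Figure D3:**
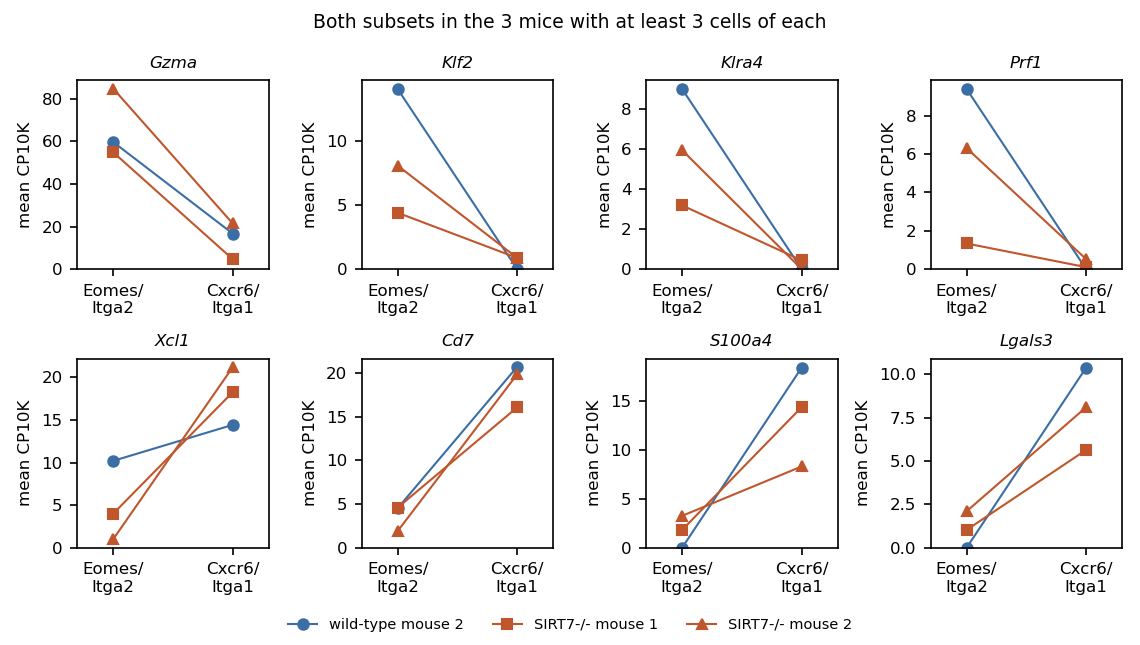
Levels of called and listed genes in Eomes/Itga2 and Cxcr6/Itga1 cells of wild-type mouse 2 and SIRT7-/- mice 1 and 2, in CP10K, with a line per mouse. Gzma falls from 54.9 to 84.8 CP10K in the former to 4.68 to 21.4 CP10K in the latter, and Cd7 climbs in all 3 mice.

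Both subsets occurred in both genotypes. Cxcr6/Itga1 cells were 1 of 3, 6 of 9 and 1 of 2 of the split cells in wild-type mice 1, 2 and 3 and 33 of 42, 24 of 36 and 3 of 5 in SIRT7-/- mice 1, 2 and 3. The shares overlapped, at 50% ± 16.7 and 68.4% ± 9.41 (SD, n = 3 mice each), a difference of 18.4 percentage points (exact permutation p = 0.3). With Eomes against Cxcr6 alone they were 57.1% and 80.5% and did not overlap (exact permutation p = 0.1). With so few wild-type cells, a single cell moves a wild-type share by many points. Whether the subsets differed from each other to a different degree in the 2 genotypes could not be fitted, since only wild-type mouse 2 held enough of both.

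The genotype comparison within the members began with Sirt7. It stood at 1.22, 1.03 and 1.04 CP10K in wild-type mice 1, 2 and 3 and at 0.129, 0.122 and 0 CP10K in SIRT7-/- mice 1, 2 and 3. The groups did not overlap (exact permutation p = 0.1), and Sirt7 had a UMI in 7 of 35 wild-type and 4 of 191 SIRT7-/- members. The log2 difference of −1.46 ± 0.58 (SE) did not pass across all genes (adjusted p = 0.519).

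Over all genes the test called 12 of 3226 (0.372%), 3 higher (0.093%) and 9 lower (0.279%) in SIRT7-/- members. Of all tested genes, 12.8% had no overlap between the genotypes, and all 12 called genes were among them. The count depended on single mice. It was 22, 2 and 2 without wild-type mouse 1, 2 or 3 and 37 and 6 without SIRT7-/- mouse 1 or 3. Gzmc alone of the 12 passed without each mouse in turn, and without wild-type mouse 2 none of the 9 lower genes passed. None of the 12 passed with a pseudocount of 0.05 CP10K, with a filter at a mean of 2 CP10K or with voom weights, where limma gave 188, 84 and 241 genes at an unadjusted p under 0.05.

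Among the members, granzyme C was seen only in SIRT7-/- mice. Gzmc (chr14:56231441-56234656, minus strand, GRCm38), a granzyme of activated killer cells, was at 0 CP10K in all 3 wild-type mice and at 2.10, 5.72 and 10.4 CP10K in SIRT7-/- mice 1, 2 and 3 (adjusted p = 0.000214). It was found in 24 of 191 SIRT7-/- members, 12.6% (95% exact Clopper-Pearson interval 8.22 to 18.1), in 13, 9 and 2 cells of the 3 mice. Among 35 wild-type members it was found in 0 (interval by the same method 0 to 10.0). The 2 intervals overlap, and they count pooled cells and leave out the spread between mice. Pooled over cells, SIRT7-/- members stood at 4.06 CP10K. Over the wild-type group, 3 counts would give 0.367 CP10K. The UMIs lay bunched in few cells, so these values set no lower limit on the fold difference. Of 122 UMIs, 37 lay in 1 cell of SIRT7-/- mouse 2. It was found in 13 of 60 Cxcr6/Itga1 cells and 1 of 23 Eomes/Itga2 cells of SIRT7-/- mice, and in 0 of 8 wild-type Cxcr6/Itga1 cells. In T cells of SIRT7-/- mice 1, 2 and 3 it was found in 1 of 215, 8 of 360 and 1 of 18 cells. T cells held 0 to 0.058 CP10K in the wild type and 0.0425 to 0.156 CP10K in SIRT7-/- mice. The call held under 12 of 16 alternatives, with adjusted p up to 0.209 in the others.

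Other cytotoxic genes did not pass. Gzma stood at 77.9, 54.0 and 69.9 CP10K in wild-type mice and at 24.3, 47.1 and 71.2 CP10K in SIRT7-/- mice (log2 difference −0.61, adjusted p = 0.767). Gzmb stood at 10.3, 13.2 and 11.9 against 4.20, 9.46 and 12.3 CP10K (log2 difference −0.54, adjusted p = 0.767). Prf1 stood at 7.17, 3.47 and 6.54 against 1.12, 2.97 and 5.62 CP10K (adjusted p = 0.681). The genotypes overlapped for all 3 genes, with SIRT7-/- mouse 1 the lowest each time. Of 12 tested genes of granules and death ligands 1 was higher, Gzmc, with a list median log2 difference of 0.10 beside −0.02 over all tested genes. Of 17 tested NK receptors, 11 adaptors and cytokine receptors, 7 cytokines and 16 transcription factors 0 passed, with median log2 differences of −0.01, 0.13, 0.07 and 0.15.

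The 2 lists of the subsets leaned apart without a call. On the liver ILC1 side all 12 tested genes had a log2 difference above 0 in SIRT7-/- members (median 0.89) and 0 passed. On the circulating NK side 1 of 15 had one above 0 (median −0.46) and 0 passed. Xcl1 stood at 1.39, 9.61 and 2.30 CP10K in wild-type mice and at 10.9, 14.3 and 11.9 CP10K in SIRT7-/- mice, without overlap (log2 difference 1.76 ± 0.46 SE, adjusted p = 0.136). Cd7 stood at 2.08, 12.0 and 3.25 against 10.2, 10.8 and 12.3 CP10K, and wild-type mouse 2 lay within the SIRT7-/- range (adjusted p = 0.429). Klra9, a Ly49 receptor, stood at 2.37, 3.99 and 1.89 against 0.633, 1.81 and 0 CP10K, without overlap (log2 difference −1.52, adjusted p = 0.359). The share of Cxcr6/Itga1 cells was 33.3%, 66.7% and 50% in wild-type mice 1, 2 and 3, against 78.6%, 66.7% and 60% in SIRT7-/- mice 1, 2 and 3, and its part in these levels was not tested.

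**Figure D4:**
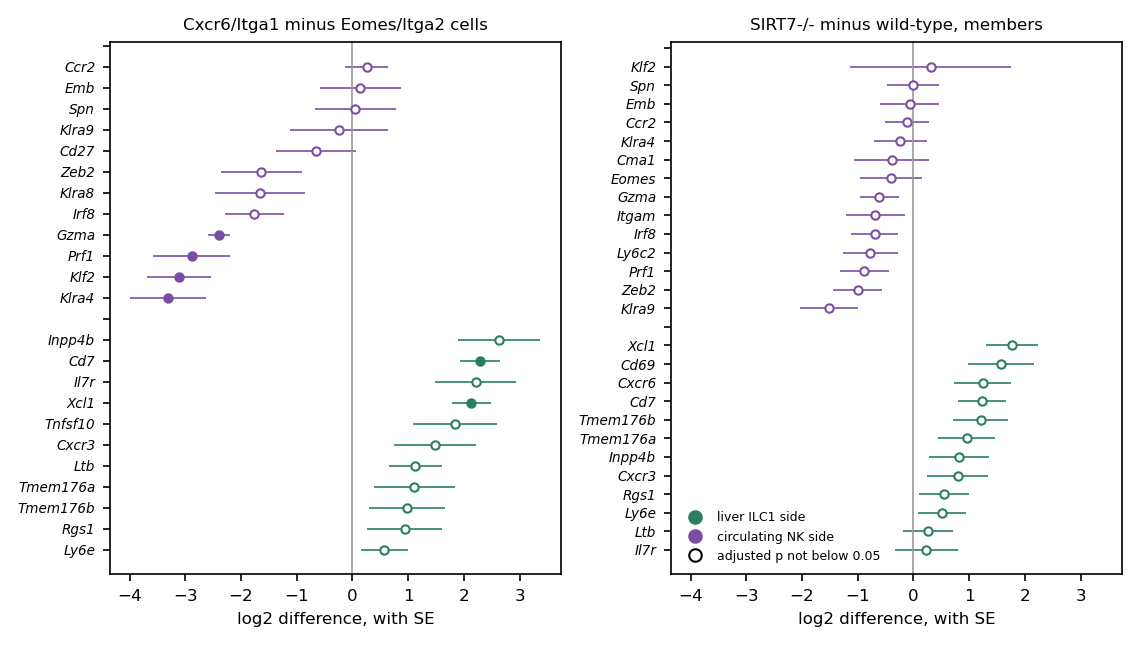
Log2 differences with their SE for genes of the circulating NK and liver ILC1 lists, Cxcr6/Itga1 minus Eomes/Itga2 cells in 3 mice and SIRT7-/- minus wild-type members in 6 mice. Filled points passed at an adjusted p under 0.05 and open points did not. In the genotype comparison all 12 ILC1 genes lie above 0 and the circulating NK genes shown lie below 0 except Klf2, all of them open.

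The 9 lower genes are expressed in hepatocytes, though Gpx1 is not limited to them. Sult2a1, a sulfotransferase of steroids and bile acids, stood at 10.1, 14.1 and 5.05 CP10K in wild-type mice and at 2.22, 1.34 and 0.116 CP10K in SIRT7-/- mice (log2 difference −2.71 ± 0.48 SE, adjusted p = 0.00351). Car3, a carbonic anhydrase of liver and fat, stood at 7.63, 10.8 and 9.97 against 2.47, 1.96 and 0.748 CP10K (log2 difference −2.24 ± 0.41, adjusted p = 0.00351). The genotypes did not overlap for either gene. Serpina1b and Serpina1a (alpha-1 antitrypsin), Sult3a1, Ttc36, Adh1 (alcohol dehydrogenase), Ass1 (urea cycle) and Gpx1 (a peroxidase) were lower by log2 differences of −1.98 to −1.46. Hepatocyte RNA was in most members (Alb in 177 of 226) and in the T cells too. Sult2a1 averaged 8.49 CP10K in T cells of the wild type and 1.34 CP10K in those without SIRT7, and 16.2 and 2.16 CP10K over all cells, and Car3 averaged 7.84 and 1.95 CP10K in T cells. Without wild-type mouse 2 the adjusted p was 0.162 for Sult2a1 and 0.116 for Car3. The hepatocyte markers summed over the T cells came to 114 to 188 CP10K in the wild type and 22.2 to 120 CP10K without SIRT7, near those of the members given above, and the part of free hepatocyte RNA in these 9 calls was not tested.

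The other 2 higher genes were ribosomal. They lay outside the rule for naming genes and were named after their values were seen. Rps15a stood at 20.9, 31.9 and 26.0 CP10K in wild-type mice and at 68.6, 67.4 and 44.4 CP10K in SIRT7-/- mice (log2 difference 1.17 ± 0.22 SE, adjusted p = 0.00351). Rpl12 stood at 6.83, 8.81 and 10.8 against 25.4, 21.9 and 17.5 CP10K (log2 difference 1.25 ± 0.28, adjusted p = 0.023). The genotypes did not overlap for either. Of 79 tested ribosomal protein genes 74 had a log2 difference above 0, with a median of 0.44 beside −0.02 over all tested genes. Without wild-type mouse 2 the adjusted p was 0.0651 for Rps15a and 0.206 for Rpl12. In T cells Rps15a stood at 48.2, 53.6 and 46.3 against 71.2, 63.2 and 54.9 CP10K, without overlap. Rpl12 stood there at 28.7, 25.5 and 20.8 against 33.0, 25.0 and 30.2 CP10K, with overlap, and over all cells both genes overlapped.

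**Figure D5:**
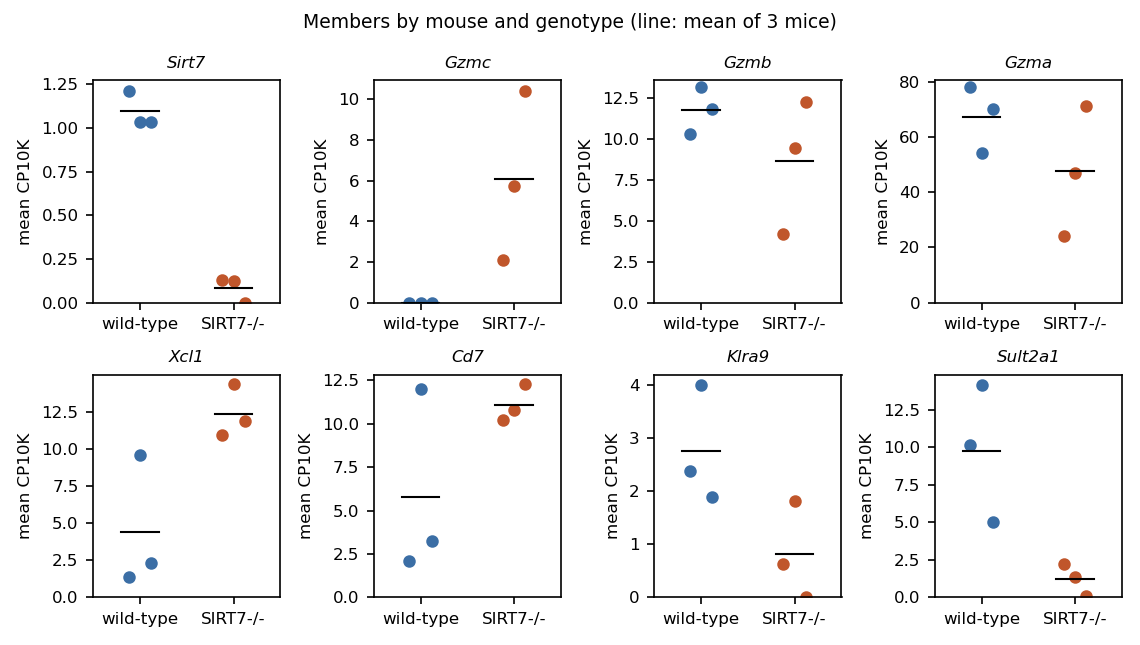
Levels of genes in NK-type cells of each mouse by genotype, in CP10K, with a point per mouse and a line at the mean of 3 mice. Gzmc is at 0 in all wild-type mice and between 2.10 and 10.4 CP10K in SIRT7-/- mice.

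Of lists outside the NK program 0 genes passed by genotype other than the ribosomal and hepatocyte genes above. Interferon-stimulated genes had 6 of 8 tested above 0 (median log2 difference 0.73), G2/M genes 6 of 6 (0.77) and MHC class I genes 10 of 14 (0.21). Immediate-early and dissociation genes had 2 of 10 above 0 (−0.22) and stress response genes 4 of 9 (−0.03).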

How the data were processed

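Single-cell RNA of 6 livers was measured on the 10x Chromium platform, 3 per genotype. The authors deposited natural log values, ln(CP10K + 1), made from counts scaled to 10000 per cell. Cells with fewer than 500 genes or over 5% mitochondrial counts had been removed. Per the submitters' processing notes, Cell Ranger 6.0.0 and mm10 were used. Whole UMIs were recovered from the values, the farthest lying 0.00387 from a whole number. Mouse and genotype were read from the barcode ending.

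Cells were averaged per mouse and tested as log2(mean CP10K + 0.5) with limma 3.58.1 (trend and robust, R 4.3.3), over genes whose mean reached 0.5 CP10K, with Benjamini-Hochberg adjustment over all of them and a threshold of 0.05. A fold change on this scale understates that of low genes. Subsets and T cells were compared within mice. Shares were compared by exact permutation over mice. Intervals and limits for a count of 0 (3 counts) cover counting error only. The fit was tested on simulated data. Python 3.11.15 and scanpy 1.11.5 were used. The scanpy doublet caller marked 0 members in 5 mice and 1 in wild-type mouse 1, but only 0.0535% of 5609 cells in SIRT7-/- mouse 1, so its calls were not relied on and no cell was removed.

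The members, lists and tests were chosen with earlier results of these data known. Named genes were those of the lists and, per comparison and direction, up to 15 called genes of largest log2 difference that did not overlap, with ribosomal genes only as a list. The design asked for 20 members per mouse and 10 cells per subset. No wild-type mouse had 20 members, so 5 and 3 were used, a choice made after the cell counts were seen, as was the comparison with T cells over 6 mice. The interaction of genotype and subset was not run, and 2 listed genes are not reported here. Mice with the same number were not taken as pairs, since no label pairs them. Their correlations of deviations (0.0951, 0.0204 and -0.0341) cannot settle this. Alternatives were other pseudocounts, filters, weights and gates, thinning to 1000 UMIs, a replicate block and leaving out each mouse.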

Additional observations from a re-analysis of the deposited data

How the results depend on the processing

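By genotype, 12 genes passed in NK-type cells. The count was 0 with a pseudocount of 0.05 CP10K, a filter at 2 CP10K or voom weights, 21 with Klrb1c required, 19 with cells thinned to 1000 UMIs (12 higher and 7 lower, against 3 and 9), and 2 to 37 leaving out 1 mouse. For 12 genes, 112 of 192 alternative values were still called, 80 were not and 0 reversed. Between subsets, 20 passed. The count was 1 with a pseudocount of 0.05 CP10K, 13 with every gene, 11 with a filter at 2 CP10K, 10 on mean natural log values, 32 with voom, 1 with thinned cells (2 mice), 1 with all mice holding 1 cell of each subset, and 9 to 21 leaving out 1 mouse. Reversed were Tmsb4x (−0.10 with 1 cell of each subset) and Xist (−0.30 with Klrb1c required). Against T cells in 2 mice, 118 passed, 47 with a pseudocount of 0.05 CP10K and 44 with a filter at 2 CP10K. Over 6 mice, 143 passed, 67 with every gene, 250 with voom, 95 thinned and 94 to 145 leaving out 1 mouse, 94 without wild-type mouse 2. The causes of these shifts were not tested. The comparison over 2 mice gave no value with a mouse left out.

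With a replicate block, 26 genes passed by genotype. The numbers are not known to pair mice, since no label says so. No correlation of same-numbered mice was over 0.1, but with 3 mice per genotype this cannot tell whether mice were paired. Blocked differences in shares were 1.17 points of all cells, 20.2 of NK-type plus T cells, 18.4 of split cells and 6.37 of dividing cells, as without the block, with exact sign-flip p of 0.25, 0.25, 0.5 and 0.25, where 0.25 is the smallest 3 mice allow. Every share kept its direction in all alternatives. With 9 to 15 members in each wild-type mouse and 9 in SIRT7-/- mouse 3, 1 UMI can move the mean of a low gene.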
